A study of Mus musculus with 21 samples.

Results

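The BAF complex is an ATP-dependent chromatin remodeller of the SWI/SNF family, and 10 of the genes that encode its subunits were followed through motor neuron differentiation. They were picked by name from the 55400 gene identifiers of the count table. *Actl6a*, *Phf10*, *Ss18* and *Smarcd1* were taken as the 4 progenitor forms. *Actl6b*, *Dpf1*, *Dpf3*, *Ss18l1* and *Smarcd3* were taken as the 5 neuronal forms, and *Smarca4*, the ATPase BRG1, belongs to both assemblies.

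The complex carries a single subunit of each kind at several of its positions, and each of those positions can be filled by more than one paralog. When neural progenitors leave the cell cycle, the assembly known as npBAF is replaced by nBAF. BAF53A (*Actl6a*) gives way to BAF53B (*Actl6b*), BAF45A (*Phf10*) to BAF45B and BAF45C (*Dpf1* and *Dpf3*), and SS18 to CREST (*Ss18l1*). In this textbook account REST holds back the neuronal microRNAs miR-124 and miR-9-3p in progenitors, and these microRNAs, once released, act on the 3′ UTR of *Actl6a*. BAF53B is known for its part in dendrite growth and memory.

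The libraries held poly(A) RNA from motor neuron cultures grown from 1 genotype (WT) of C57BL/6 mouse embryonic stem cells, through embryoid bodies patterned with retinoic acid (RA) and the Sonic Hedgehog agonist SAG. There were 21 libraries in 7 groups of 3 biological replicates. Untreated groups were D4, D4H8 (8 hours after day 4), D5 and D6. Groups given GSKJ4, an inhibitor of the H3K27 demethylases Kdm6a and Kdm6b, were D4H8, D5 and D6, with GSKJ4 present from 1 day before harvest. The medium changed with the stage. By the protocol, RA and SAG were left out of the medium from D5 on, so the D6 groups alone had a day without them, and the Notch pathway inhibitor DAPT was given from D4 on, so the D4 group alone had none. Stage and medium cannot be told apart in the comparisons of stages. A vehicle for GSKJ4 was not given in the sources used here. The cultures are mixtures grown from embryoid bodies, from a single embryonic stem cell strain kept on fibroblast feeders, so a change in bulk RNA can be fewer cells of a type or less RNA per cell, and these cannot be told apart. P-values measure the spread between these replicates.

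Reads counted on genes ran from 14982115 to 34383842 per library. Replicate 2 of the GSKJ4-treated D5 group stood apart, with 39381 gene identifiers at 0 counts against 29339 to 32805 in the others. The labels call every library a differentiated motor neuron, but the 6 postmitotic motor neuron markers summed to 7.53 to 19.1 FPKM at D4 and 394 to 456 FPKM at D6. Summed levels of the 5 neuron markers went from 28.5 to 59.7 FPKM at D4 to 1575 to 1796 FPKM at D6, and those of the 5 cycling cell markers from 390 to 434 down to 27.6 to 80.2 FPKM. In D6 against D4 all 5 neuron markers and all 6 postmitotic motor neuron markers rose and all 5 cycling cell markers fell, beside every stage result below, and their part in those results was not tested. The 5 motor neuron progenitor markers summed to 140 to 209 FPKM at D4 and 149 to 217 FPKM at D6. Of these 5, 3 were lower at D6, 1 was higher and 1 did not pass. The 4 pluripotency genes still summed to 5.32 to 35.6 FPKM at D6, lowest in replicate 1, and the 5 feeder fibroblast genes to 11.3 to 25.2 FPKM. Muscle and heart genes reached at most 4.47 FPKM, glial genes 11.4 FPKM and V2 and V3 interneuron genes 4.82 FPKM as sums in any library, with *Myod1* at or under 3 counts in every library. FPKM is a count scaled to the exonic length of the gene and to the counted reads of the library, and levels of different genes are compared on this scale alone.

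A pair of sequences shows the microRNA step that this switch is known for. The mature mmu-miR-9-3p is given first, from RefSeq on GRCm38.p6, with its seed (bases 2 to 8) in capitals, and it is the same at Mir9-1, Mir9-2 and Mir9-3. Below it stands the match to that seed in the 3′ UTR of *Actl6a*, in the last exon on the plus strand (GRCm38 chr3:32726618-32726647), with the 7 matching bases in capitals.
mmu-miR-9-3p: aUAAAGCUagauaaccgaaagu
Actl6a 3′ UTR: tgcccgtcacctcaacgtctgtAGCTTTAg
The match began at base 243 of a 376-base UTR. *Actl6a* was the only 1 of the 10 genes with AGCTTTA in its longest annotated 3′ UTR, while 11.7% of 21173 mouse genes had it. A match of letters is not a tested site, and mature microRNAs were not measured in these libraries.

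Promoter sequences of the actin-related pair and of the BAF45 forms are shown because *Actl6b*, *Dpf1* and *Dpf3* had the 3 steepest rises among the 10 genes while *Actl6a* fell. Each run is 250 bases before to 50 bases after a RefSeq start. Capitals mark the GC box GGGCGG and the CCAAT box on either strand, so CCGCCC and ATTGG are the same letters read from the other strand.
Actl6b, GRCm38.p6 chr5:137553296-137553595, plus strand: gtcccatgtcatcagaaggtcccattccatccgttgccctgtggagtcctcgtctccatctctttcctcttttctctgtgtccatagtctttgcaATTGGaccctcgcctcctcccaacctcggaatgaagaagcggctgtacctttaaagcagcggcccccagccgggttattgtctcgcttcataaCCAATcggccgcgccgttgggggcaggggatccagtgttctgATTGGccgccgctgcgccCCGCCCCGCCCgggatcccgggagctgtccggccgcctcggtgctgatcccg
Dpf1, GRCm38.p6 chr7:29303755-29304054, plus strand: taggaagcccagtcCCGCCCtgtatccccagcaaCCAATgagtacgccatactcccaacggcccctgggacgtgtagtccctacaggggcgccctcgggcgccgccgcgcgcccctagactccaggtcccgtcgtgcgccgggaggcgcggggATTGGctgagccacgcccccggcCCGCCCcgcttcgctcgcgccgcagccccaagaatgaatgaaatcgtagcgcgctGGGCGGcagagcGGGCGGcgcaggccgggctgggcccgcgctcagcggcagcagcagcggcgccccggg
Dpf3, GRCm38.p6 chr12:83487687-83487986, minus strand: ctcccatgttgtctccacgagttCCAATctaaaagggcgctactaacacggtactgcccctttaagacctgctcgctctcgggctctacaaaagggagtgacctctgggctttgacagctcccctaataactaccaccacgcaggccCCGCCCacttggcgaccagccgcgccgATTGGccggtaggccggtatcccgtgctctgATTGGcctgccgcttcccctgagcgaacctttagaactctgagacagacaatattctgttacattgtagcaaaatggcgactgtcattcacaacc
Actl6a, GRCm38.p6 chr3:32708296-32708595, plus strand: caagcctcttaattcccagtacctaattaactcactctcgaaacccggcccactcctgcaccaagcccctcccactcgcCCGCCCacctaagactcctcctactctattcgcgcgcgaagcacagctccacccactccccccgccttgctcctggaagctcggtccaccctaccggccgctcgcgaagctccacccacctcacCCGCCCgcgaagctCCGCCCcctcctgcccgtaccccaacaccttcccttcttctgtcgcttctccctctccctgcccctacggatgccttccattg
The table held promoters for 9 of the 10 genes, all but *Ss18*. CCAAT occurred 3 times in *Actl6b*, 2 times in *Dpf1* and 3 times in *Dpf3*, and was in none of the other 6, against 37.4% of all 32851 promoters of this length. All 9 held GGGCGG, which was in 35.7% of all promoters. The 9 bases TTCAGCACC, the first part of the REST element, were in none of the 9 and in 0.371% of all promoters. The windows were also richer in CpG than most, with 17 to 62 CpG each against a median of 7. Other short motifs were counted in the same windows. Of these, 1 was in *Smarcd1*, *Smarcd3* and *Phf10* alone and the rest were in none of the 9. The 6 promoters without a CCAAT box included those of *Ss18l1* and *Smarcd3*, neuronal forms that also rose. The 3 genes with it were grouped by their rise in these same data, and a link between the box and a rise was not tested.

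From D4 to D6 the neuronal forms rose and 3 of the 4 progenitor forms fell. All 10 genes passed the test in D6 against D4 (quasi-likelihood test of edgeR on 17519 genes, Benjamini-Hochberg adjusted p under 0.05), 7 upward and 3 downward. In this contrast 63.9% of all tested genes passed, 32.9% upward and 31% downward, which is the background for the 10. The libraries of D4 and D6 did not overlap for any of the 10, as for 69.3% of all genes. The median log2 fold change was 3.49 over the 5 neuronal forms, -0.94 over the 4 progenitor forms and -0.04 over all genes tested. The progenitor form that did not fall was *Smarcd1*.

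**Figure D1:**
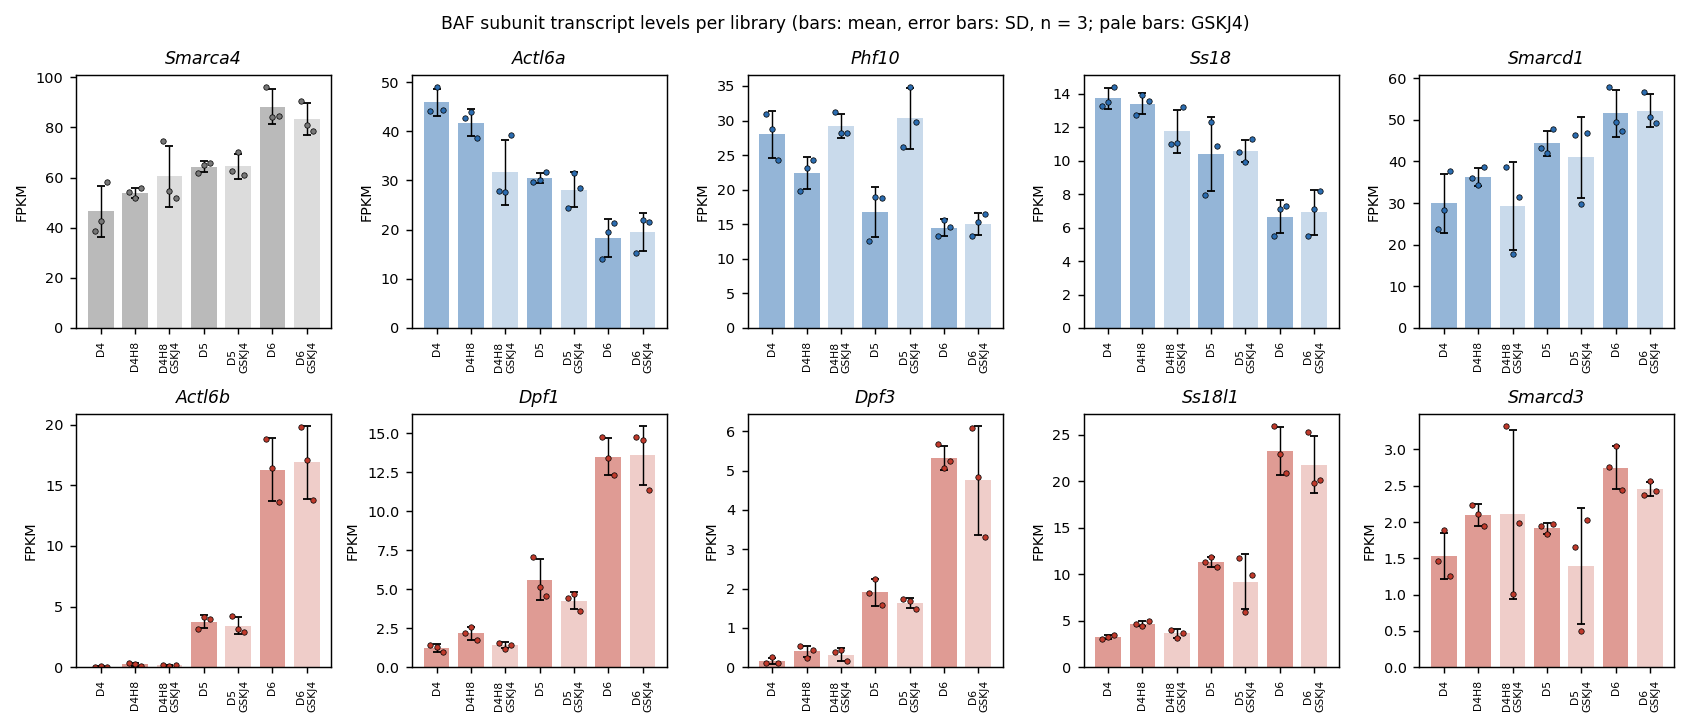
Level of each of the 10 subunit genes in FPKM (vertical axes, which differ between panels) in the 7 groups. Points are libraries, bars are means and error bars SDs (n = 3); blue marks progenitor forms, red neuronal forms, grey Smarca4, and pale bars GSKJ4. Actl6b goes from a mean of 0.0428 FPKM at D4 to 16.3 FPKM at D6, and Actl6a from 45.8 to 18.3 FPKM.

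The actin-related position held the largest fold change of all 31 subunit genes read here. *Actl6b* (ENSMUSG00000029712, GRCm38 chr5:137553517-137569582), the neuron-restricted BAF53B, was near the detection limit at D4 with 3, 5 and 2 counts, or 0.0309, 0.0685 and 0.0289 FPKM. It read 0.320, 0.303 and 0.11 FPKM at D4H8, and 3.13, 4.18 and 3.97 FPKM at D5. At D6 it read 18.8, 16.4 and 13.6 FPKM from 1309, 1116 and 913 counts. Each stage lay wholly above the stage before it. The summed counts, scaled to library size, were 390-fold higher at D6 than at D4 (95% interval 212 to 815, exact, counting error only), and the fitted log2 fold change was 8.61 (SE 0.377, adjusted p 4.5e-10). Fitted steps were 2.52 (SE 0.474) to D4H8, 3.85 (SE 0.289) to D5 and 2.24 (SE 0.239) to D6. The first step passed (adjusted p 0.0065) but not without D4 replicate 1 (0.0519) or D4H8 replicate 1 (0.0597).

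*Actl6a* (ENSMUSG00000027671, chr3:32706298-32726973), the BAF53A of dividing cells, went the other way. Its levels were 44.2, 49.1 and 44.2 FPKM at D4, 42.7, 43.9 and 38.7 FPKM at D4H8, 29.7, 30.1 and 31.6 FPKM at D5, and 14.0, 19.6 and 21.4 FPKM at D6. Libraries of successive stages did not overlap. Its D6 against D4 log2 fold change was -1.27 (SE 0.133, adjusted p 1.7e-06), with -0.45 (adjusted p 0.019) from D4H8 to D5 and -0.63 (adjusted p 0.0024) from D5 to D6. Without D4H8 replicate 1 or 2 the D5 step had adjusted p 0.0648 and 0.0705. The gene shares 452 exonic bases with *Mrpl47* on the opposite strand, which read 3.59 to 8.64 FPKM over the untreated libraries, and the counting strand was not stated.

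The sum of both paralogs was lower at D6, at 32.8 to 36.0 FPKM against 44.2 to 49.1 FPKM at D4, with no overlap. As a share of that sum, *Actl6b* made up 0.0915% of the D4 libraries on average (SD 0.0416, n = 3). The share was 0.571% (SD 0.252) for D4H8, 11% (SD 1.33) for D5 and 47.3% (SD 9.26) for D6. At D6 the replicates spread widely, with 57.3%, 45.6% and 39.0%, and *Actl6b* was above *Actl6a* in replicate 1 alone. The same replicate had the lowest sum of cycling cell markers, 27.6 FPKM against 67.8 and 80.2 FPKM, and the highest sum of neuron markers, 1796 FPKM against 1641 and 1575 FPKM. The GSKJ4-treated D6 libraries showed the same order, with shares of 56.6%, 43.8% and 39.1% beside cycling cell sums of 26.6, 80.0 and 77.0 FPKM. The part of cell composition in these shares was not tested. Here and below, shares of a position are shares of transcript FPKM. Subunit proteins and the make-up of the assembled complex were not measured.

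**Figure D2:**
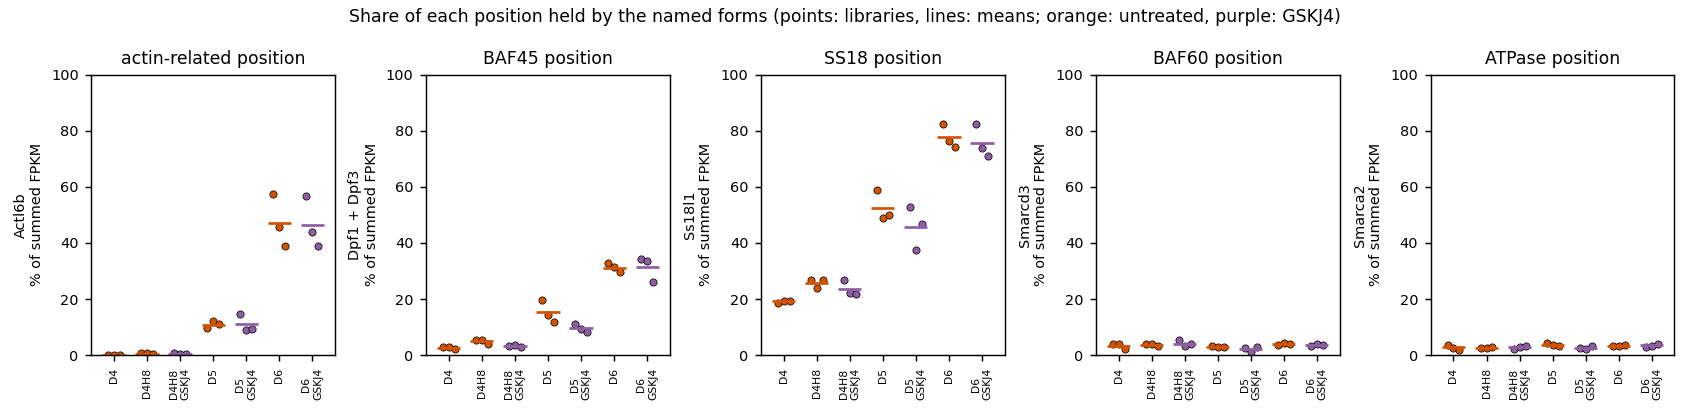
Percent of the summed FPKM of each position held by the form named on the vertical axis. Points are libraries, lines are group means (n = 3), orange is untreated and purple GSKJ4. Actl6b, the pair Dpf1 and Dpf3, and Ss18l1 climb from D4 to D6, to 47.3%, 31.2% and 77.6%, while Smarcd3 and Smarca2 stay under 6% in every library.

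In percentage points, the SS18 position had the largest shift in share of the 5 positions from D4 to D6, while as a ratio the share of *Actl6b* moved more. *Ss18l1* (ENSMUSG00000039086, chr2:180042509-180070201) encodes CREST, a calcium-responsive coactivator needed for dendrite growth. It read 3.07, 3.25 and 3.48 FPKM at D4, 4.63, 4.43 and 4.95 FPKM at D4H8, 11.4, 11.8 and 10.8 FPKM at D5, and 26.0, 22.9 and 20.9 FPKM at D6. The stages were stacked with no overlap and with replicates close together. In D6 against D4 the log2 fold change was 2.90 (SE 0.132, adjusted p 6e-10), with 1.28 and 1.16 for the steps to D5 and to D6. The first step, 0.47 (SE 0.127), had adjusted p 0.0565, and 0.0475 with a replicate block.

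*Ss18* (ENSMUSG00000037013), the progenitor form, read 13.3, 13.5 and 14.4 FPKM at D4 and 5.52, 7.12 and 7.32 FPKM at D6. D5 lay between, at 7.97, 12.3 and 10.9 FPKM, with replicate 1 low. D6 against D4 gave a log2 fold change of -0.99 (SE 0.14, adjusted p 2.9e-05). The step from D4H8 to D5, -0.37 (SE 0.138), had adjusted p 0.0614, and 0.0405 with a replicate block. Of the sum of both genes, *Ss18l1* held 19.2% (SD 0.364) at D4 and 25.8% (SD 1.48) by D4H8. It held 52.5% (SD 5.45) at D5 and 77.6% (SD 4.37) by D6. It was above *Ss18* in 1 of 3 libraries at D5 and in 3 of 3 at D6. The sum itself went up, from 17.0 FPKM (SD 0.811) to 29.9 FPKM (SD 1.64).

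The BAF45 position holds plant homeodomain (PHD) finger subunits that read histone tails. *Dpf1* (BAF45B, ENSMUSG00000030584, chr7:29303951-29318243) read 1.44, 1.31 and 0.986 FPKM at D4, 2.18, 2.56 and 1.76 FPKM at D4H8, and 7.10, 5.15 and 4.59 FPKM at D5. It reached 14.7, 13.4 and 12.3 FPKM at D6, each stage above the stage before in every library, with a D6 against D4 log2 fold change of 3.49 (SE 0.237, adjusted p 2.3e-08). Its rise had adjusted p 0.1 to D4H8 (0.0133 with a replicate block), and passed at both later steps, each with 1.38 on the log2 scale. It shares 96 exonic bases with *Gm44632* on the opposite strand.

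*Dpf3* (BAF45C, ENSMUSG00000021221, chr12:83213745-83487716) was at 0.115, 0.249 and 0.117 FPKM at D4 and 0.53, 0.248 and 0.442 FPKM at D4H8, and the libraries of these stages overlapped. It read 1.89, 2.25 and 1.58 FPKM at D5 and 5.67, 5.05 and 5.24 FPKM at D6. The D6 against D4 log2 fold change was 5.13 (SE 0.345, adjusted p 2e-08), and the summed counts, scaled to library size, were 34.1-fold higher (95% interval 24.6 to 48.7, counting error only). The step to D4H8, 1.34 (SE 0.352), passed narrowly at adjusted p 0.0469. That adjusted p went to 0.0502 with a replicate block, and to 0.196, 0.126, 0.319 and 0.0895 without D4 replicate 1, D4 replicate 3, D4H8 replicate 1 and D4H8 replicate 3. The steps to D5 and D6 were 2.19 and 1.60 with adjusted p 0.0001 and 0.00064.

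*Phf10* (BAF45A, ENSMUSG00000023883, chr17:14945009-14961273), which is needed for progenitor proliferation, was lower at D6 than at D4. It read 31, 28.7 and 24.3 FPKM at D4, 19.8, 23.1 and 24.3 FPKM at D4H8, 12.5, 18.9 and 18.8 FPKM at D5, and 13.2, 15.7 and 14.6 FPKM at D6. Its D5 libraries already overlapped those of D6, and the log2 fold change between them was -0.09 (SE 0.162, adjusted p 0.7). From D4 to D6 it was -0.90 (SE 0.162, adjusted p 0.00026). The gene shares 470 exonic bases with *1600012H06Rik* on the opposite strand, which read 9.67 to 10.5 FPKM at D4 and 5.97 to 8.39 FPKM at D6.

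*Dpf2*, the BAF45 form found in most cell types, was taken into the sum. *Dpf1* and *Dpf3* together made up 2.71% (SD 0.385) of the summed FPKM at D4, 15.3% (SD 4.08) at D5 and 31.2% (SD 1.56) at D6. *Dpf2* had a mean of 22.1 FPKM (SD 1.71) at D4 against 26.9 FPKM (SD 1.98) at D6, with a log2 fold change of 0.35 (SE 0.106, adjusted p 0.01, and 0.0553 without D4 replicate 1). It was the most abundant of the 4 genes by mean at D6. Without *Dpf2* in the sum the share of the neuronal forms at D6 was 56.5%. *Dpf1* exceeded *Phf10* at D6 in 1 of 3 libraries, replicate 1, and *Dpf3* in none.

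At the BAF60 position both listed forms rose. *Smarcd1* (BAF60A, ENSMUSG00000023018, chr15:99702129-99713991), listed as a progenitor form, read 23.8, 28.2 and 37.7 FPKM at D4 and 58.0, 49.4 and 47.2 FPKM at D6. It rose by 0.87 on the log2 scale (SE 0.141, adjusted p 0.0001), and no single step between stages passed. *Smarcd3* (BAF60C, ENSMUSG00000028949, chr5:24590818-24624411), listed as neuronal and known also from heart development, read 1.46, 1.89 and 1.25 FPKM at D4 and 2.76, 3.04 and 2.44 FPKM at D6, a log2 fold change of 0.91 (SE 0.193, adjusted p 0.00097). *Smarcd3* made up 3.47% (SD 1.02) of the summed FPKM of this position at D4 and 4.06% (SD 0.42) at D6. *Smarcd2*, the third BAF60 gene, had means of 14.2 FPKM (SD 1.85) and 13.6 FPKM (SD 1.06).

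The value of *Smarcd3* is uncertain, since 2466 of its 5120 exonic bases are shared with *Chpf2* on the opposite strand, which read 2.33 to 3.80 FPKM at D4 and 4.27 to 5.18 FPKM at D6. Its call in D6 against D4 did not pass in the fit over all 21 libraries (adjusted p 0.0581). Its D6 against D5 call (adjusted p 0.0205) was lost without D5 replicate 2 (0.0769), D5 replicate 3 (0.0589), D6 replicate 1 (0.0614) or D6 replicate 2 (0.0723). It was lost too without the filter on low counts (0.057) and in the fit over all 21 libraries (0.284).

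*Smarca4* (ENSMUSG00000032187, chr9:21616169-21704230), the ATPase that drives remodelling in both assemblies, also rose. It read 38.5, 42.6 and 58.2 FPKM at D4 and 96.3, 84.0 and 84.6 FPKM at D6, a log2 fold change of 1.01 (SE 0.133, adjusted p 1.5e-05). The step from D5 to D6 passed (0.58, adjusted p 0.0043) and the earlier steps did not. Its alternative *Smarca2*, the ATPase BRM, rose by 1.29 (SE 0.167, adjusted p 1.3e-05), from 1.30 FPKM (SD 0.152) to 3.04 FPKM (SD 0.18), and made up 2.03% to 4.45% of the ATPase sum in any untreated library.

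By level, *Smarca4* (46.5 FPKM) and *Actl6a* (45.8 FPKM) led at D4, and their libraries overlapped. *Smarcd1* and *Phf10* came next, also overlapping, then *Ss18*, and all 5 neuronal forms lay below these. At D6 *Smarca4* and *Smarcd1* led, each with all libraries above the next gene. *Ss18l1*, *Actl6a*, *Actl6b*, *Phf10* and *Dpf1* followed between 23.3 and 13.5 FPKM, and no neighbours in that run were apart in all libraries.

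The calls built up over the stages. From D4 to D4H8, 2 of 10 genes passed, both upward (*Actl6b* and *Dpf3*), where 4.38% of all genes passed, 4.06% upward and 0.32% downward. From D4H8 to D5, 5 of 10 passed (*Actl6b*, *Dpf1*, *Dpf3* and *Ss18l1* upward, *Actl6a* downward), where 27.7% of all genes passed, 17.2% upward and 10.5% downward. From D5 to D6, 8 of 10 passed, 6 upward and 2 downward, where 34.3% of all genes passed, 19.2% upward and 15.1% downward. The 2 that did not pass were *Smarcd1* and *Phf10*. The libraries did not overlap for 6, 9 and 8 of the 10 genes in turn, against 24.5%, 43.1% and 48.5% of all genes. Neighbouring steps share the libraries of a stage. With a replicate block the counts were 3, 6 and 8. Over all 17519 genes the block gave 838, 3246 and 3645 higher in turn, in place of 711, 3019 and 3369. It gave 107, 2173 and 3008 lower, in place of 56, 1842 and 2647.

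Beyond the 10, 21 further subunit genes of BAF and its relatives PBAF and ncBAF were read from a fixed list. In D6 against D4, 14 of 21 rose, 1 fell and 6 did not pass, with a median log2 fold change of 0.56. The 15 that passed were near the all-gene share of 63.9%, while all genes tested split into 32.9% upward and 31% downward. The largest rises were in *Bcl11a* (6.16, SE 0.546) and *Bcl11b* (5.28, SE 0.431), zinc finger proteins of neurons and lymphocytes that also associate with the complex. *Bcl11a* went from 0.0134, 0.0533 and 0.0374 FPKM at D4 to 3.11, 1.86 and 1.87 FPKM at D6. The core scaffold *Smarcc2* (BAF170) rose by 1.80 (SE 0.121), while its paralog *Smarcc1* (BAF155) had -0.16 (SE 0.118, adjusted p 0.26). *Bicral* (1.70), *Arid1b* (1.35), *Bicra* (1.28), *Bcl7a* (1.26) and *Bcl7c* (1.00) also rose by at least 1 on the log2 scale. *Brd7*, a subunit of PBAF as is *Phf10*, was the 1 that fell, by 0.80 on the log2 scale (SE 0.141, adjusted p 0.0002).

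**Figure D3:**
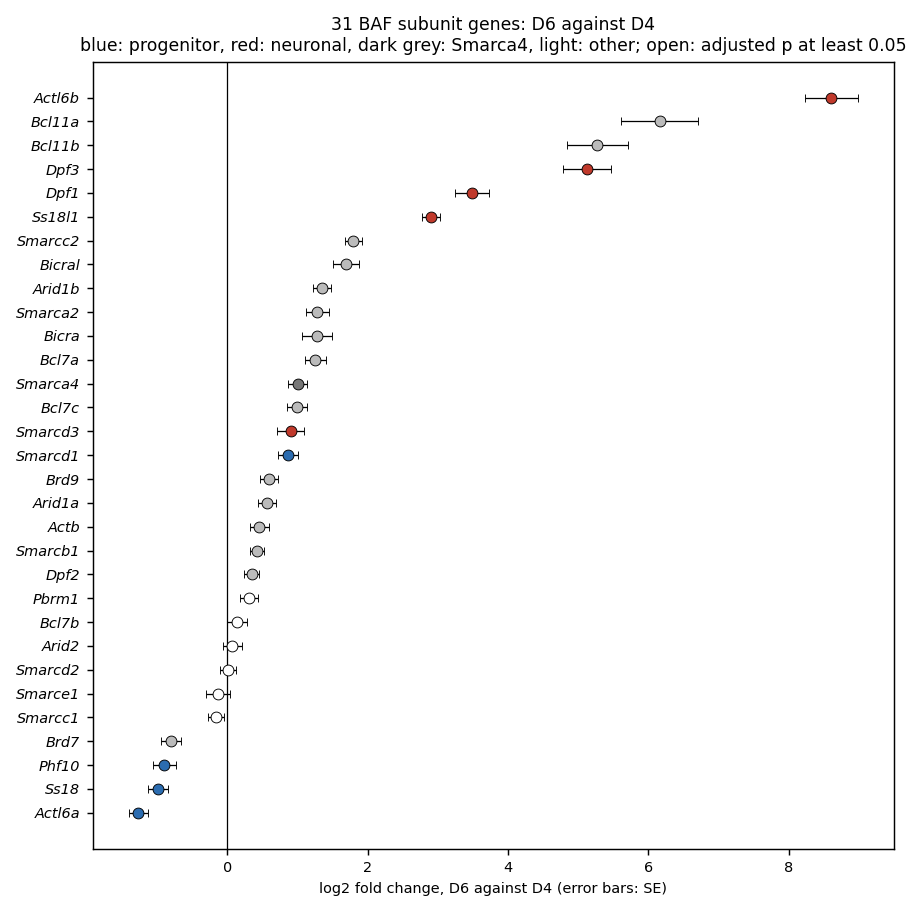
Log2 fold change of D6 against D4 (horizontal axis; error bars are SEs) for 31 subunit genes, from the fit to the 12 untreated libraries. Blue marks progenitor forms, red neuronal forms, dark grey Smarca4 and light grey the others; open points have an adjusted p of at least 0.05. Actl6b (8.61) stands highest and Actl6a (-1.27) lowest.

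The regulators of the known circuit were read as a list of 7 transcripts, of which 2 rose and 2 fell from D4 to D6, where 63.9% of all genes passed. *Rest*, the repressor of neuronal genes, read 11.8, 12 and 16.6 FPKM at D4 and 2.65, 6.12 and 7.29 FPKM at D6, a log2 fold change of -1.27 (SE 0.284, adjusted p 0.0014). The lowest of these was D6 replicate 1, the library with the highest share of *Actl6b*. *Mir124a-1hg*, a host transcript of miR-124, read 0.760, 1.57 and 1.37 FPKM at D4, 8.10, 5.70 and 6.42 FPKM at D4H8 and 22.2, 25.3 and 25.6 FPKM at D5. It stood at 27.9, 21.9 and 19.7 FPKM at D6, 4.33 (SE 0.24) above D4 on the log2 scale.

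*Mir124-2hg*, the second miR-124 host listed, was highest at D5 with 32.8 FPKM (SD 3.34), against 5.99 FPKM (SD 0.187) for D4 and 16.6 FPKM (SD 0.524) for D6. Both miR-124 hosts rose in the first 8 hours after D4 (log2 fold changes 2.43 and 1.07, adjusted p 2.9e-05 and 0.0012). In the same step *Actl6a* had -0.19 (SE 0.13, adjusted p 0.5), with libraries that did not overlap. A link between these changes was not tested. *C130071C03Rik*, whose span holds Mir9-2, fell by 1.40 on the log2 scale (SE 0.323) from D4 to D6, and *Mir9-3hg*, whose span holds Mir9-3, had 0.32 (SE 0.464, adjusted p 0.56). The corepressors *Rcor1* (-0.18) and *Rcor2* (0.16) did not pass. Host transcripts are not the mature microRNAs, whose levels were not measured.

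**Figure D4:**
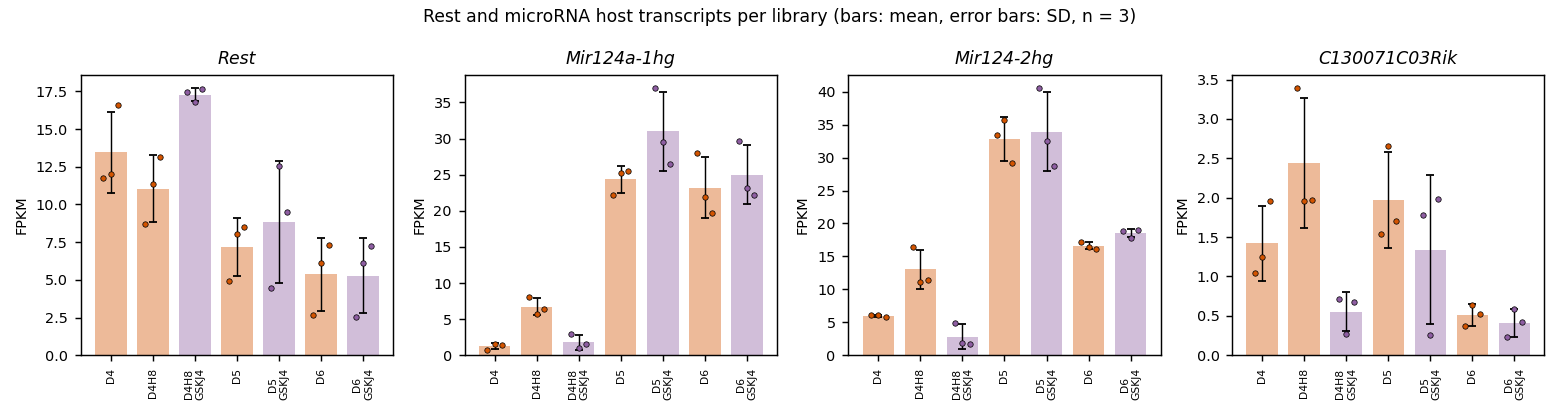
FPKM of Rest and of 3 microRNA host transcripts by group; points are libraries, bars means and error bars SDs (n = 3), with orange untreated and purple GSKJ4. Rest goes down from 13.4 FPKM at D4 to 5.35 FPKM at D6, and both miR-124 hosts are lower with GSKJ4 than without at D4H8.

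GSKJ4 was used in the study to block Kdm6b, and the question here was whether subunit levels differed after 1 day of it at each stage. No member passed the test at D4H8, D5 or D6, where 3.96%, 0.00613% and 0% of all genes passed. At an unadjusted p under 0.05, 2, 1 and 0 of the 10 members stood against 4085 of 16269, 767 of 16309 and 222 of 16301 genes tested. By DESeq2, 0, 1 and 0 members passed, against 12.8%, 0.412% and 0.00326% of the genes that it tested. At D6, where the replicate numbers paired the libraries, a replicate block gave 0 members, against 1.58% of all genes in place of 0%. Group libraries did not overlap for 3, 1 and 0 members, against 32.9%, 11.6% and 5.3% of all genes. A p that misses the threshold does not show that levels were the same.

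At D4H8, 4 of the 5 neuronal forms had log2 fold changes from -0.77 to -0.35 and *Smarcd3* had -0.06 (SE 0.367), none past the test. The median was -0.40 over the 5 neuronal forms, -0.30 over the 4 progenitor forms and 0.02 over all genes tested. *Dpf1* read 1.56, 1.18 and 1.44 FPKM with GSKJ4 against 2.18, 2.56 and 1.76 FPKM without, a log2 fold change of -0.68 (SE 0.255, p 0.025, adjusted p 0.14 by edgeR). *Actl6a* read 27.9, 27.7 and 39.2 FPKM with GSKJ4 against 42.7, 43.9 and 38.7 FPKM without, a log2 fold change of -0.44 (SE 0.181, p 0.035, adjusted p 0.17 by edgeR). The groups overlapped for *Actl6a* and not for *Dpf1*, *Ss18l1* or *Phf10*. *Ss18l1* was lower with GSKJ4, at 3.15 to 4.06 FPKM against 4.43 to 4.95 FPKM without. *Phf10* was higher, at 28.2 to 31.2 FPKM against 19.8 to 24.3 FPKM. Replicate 2 of the treated group was low in *Smarcd1* (17.7 against 38.6 and 31.4 FPKM) and *Smarcd3* (1.00 against 3.32 and 1.99 FPKM). With any 1 of the 6 libraries left out, 0 members passed.

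*Phf10* was the member that differed most at D5. It read 26.2, 34.9 and 29.8 FPKM with GSKJ4 against 12.5, 18.9 and 18.8 FPKM without, with no overlap. The log2 fold change was 0.81 (SE 0.181, unadjusted p 0.0013), but the adjusted p by edgeR was 0.51, in a contrast where 1 gene of 16309 passed. By DESeq2 the adjusted p was 0.0179 and without the filter on low counts 0.0036, while over the 7 alternatives that kept every library it ran from 0.0036 to 0.52. Without replicate 2 of the treated D5 group the log2 fold change was 0.71 (adjusted p 0.94). *1600012H06Rik*, with which it shares exonic bases, read 11.5, 9.16 and 11.2 FPKM with GSKJ4 and 7.87, 10.5 and 9.80 FPKM without, and those groups overlapped.

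At D6 *Phf10* read 13.3, 15.3 and 16.5 FPKM with GSKJ4 and 13.2, 15.7 and 14.6 FPKM without. The GSKJ4 effect on *Phf10* was lower at D6 than at D5 by a log2 difference of -0.75 (SE 0.207, unadjusted p 0.0019, adjusted p 1 by edgeR), and 0 genes of 18103 passed that test of the difference. As levels, untreated *Phf10* averaged 22.4 (SD 2.33), 16.7 (SD 3.66) and 14.5 FPKM (SD 1.21) over D4H8, D5 and D6. With GSKJ4 the means were 29.2 FPKM (SD 1.74), 30.3 FPKM (SD 4.39) and 15 FPKM (SD 1.59).

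**Figure D5:**
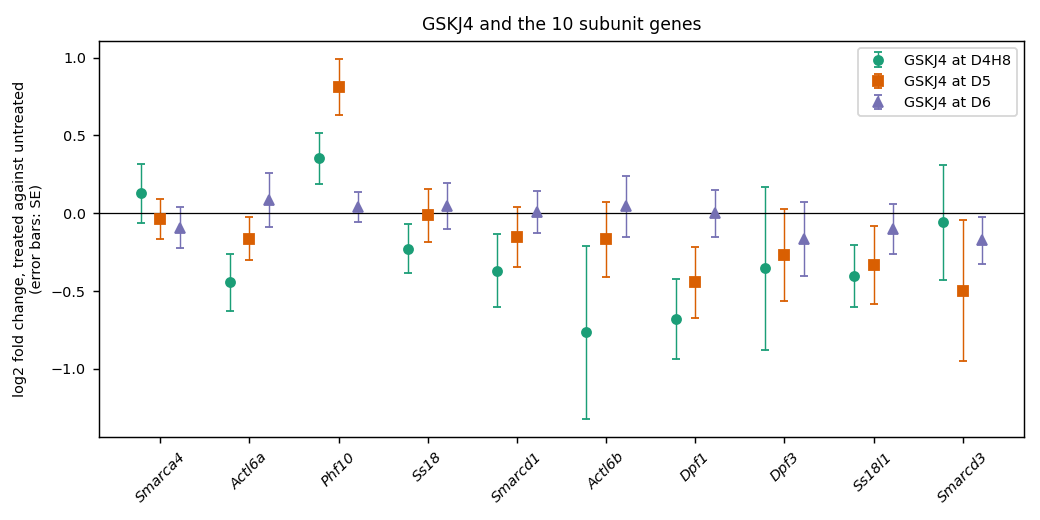
Log2 fold change of GSKJ4-treated against untreated libraries (vertical axis; error bars are SEs, n = 3 per group) for the 10 subunit genes at D4H8, D5 and D6. No value passed at an adjusted p of 0.05. Phf10 at D5 is the highest at 0.81, and all D6 values lie between -0.17 and 0.08.

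At D6 every member lay close to its untreated level. Log2 fold changes ran from -0.17 for *Smarcd3* to 0.08 for *Actl6a*, with SEs of 0.0964 to 0.239. *Actl6b* read 19.8, 17.1 and 13.8 FPKM with GSKJ4 against 18.8, 16.4 and 13.6 FPKM without. Shares of the neuronal forms with GSKJ4 at D6 were 46.5% (SD 9.06) for *Actl6b*, 31.3% (SD 4.58) for *Dpf1* with *Dpf3*, and 75.7% (SD 5.81) for *Ss18l1*. At D5 they were 11% (SD 3.13), 9.54% (SD 1.39) and 45.7% (SD 7.74), against 11%, 15.3% and 52.5% without GSKJ4. In treated D5 replicate 2, the library with the most identifiers at 0, *Ss18l1* held 37.5%, against 52.9% and 46.7% in replicates 1 and 3.

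Of the 21 other subunits, *Bcl11a* differed at D6 by the paired fit alone. It read 1.73, 1.22 and 0.920 FPKM with GSKJ4 against 3.11, 1.86 and 1.87 FPKM without, lower in each of the 3 pairs and with no overlap. The log2 fold change was -0.83 (SE 0.322), with adjusted p 1 by edgeR and 4.1e-05 with a replicate block.

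Each GSKJ4-treated group had GSKJ4 only from 1 day before its own harvest, so the treated D6 cultures had none before D5. Steps between treated groups therefore compare separate treatments and are not a course under the inhibitor. Between these groups 4 of the 5 neuronal forms rose at each step. *Smarcd3* passed at neither, with means of 2.11 FPKM (SD 1.16), 1.39 FPKM (SD 0.799) and 2.45 FPKM (SD 0.0986) at treated D4H8, D5 and D6. At treated D5 it read 0.497 FPKM in replicate 2, against 1.65 and 2.03 FPKM in replicates 1 and 3. From treated D4H8 to treated D5, 4 of 10 members passed, all upward (*Actl6b*, *Dpf1*, *Dpf3* and *Ss18l1*), where 14.2% of all genes passed, 9.59% upward and 4.65% downward. The log2 fold changes were 4.48 (SE 0.34), 1.60 (SE 0.217), 2.27 (SE 0.439) and 1.34 (SE 0.27). From treated D5 to treated D6 the same 4 genes rose and *Phf10* fell by 0.89 on the log2 scale (SE 0.17, adjusted p 0.0071), where 11.9% of all genes passed, 7.24% upward and 4.7% downward. Libraries did not overlap for 4 and 10 members in these steps, against 32.8% and 42% of all genes. *Dpf3* did not pass that step without treated D5 replicate 2 (adjusted p 0.0535) or 3 (0.0981), or without treated D6 replicate 1 (0.124) or 2 (0.0745). The fit over all 21 libraries added *Smarca4*, *Actl6a* and *Ss18* to that step. None of the 10 passed in any of the 3 tests of a difference in GSKJ4 effect between stages, where 0.249%, 0% and 0.735% of all genes passed.

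Transcripts of the circuit differed at D4H8. Of the 7 regulators 4 were lower with GSKJ4 and 0 higher, where 1.85% of all genes were lower and 2.11% higher, and of the 19 other subunits tested 1 was lower, *Bcl7a*. *Mir124-2hg* read 4.96, 1.84 and 1.64 FPKM with GSKJ4 against 16.5, 11.2 and 11.5 FPKM without, a log2 fold change of -2.27 (SE 0.403, adjusted p 0.025). *C130071C03Rik* had -2.22 (SE 0.4, adjusted p 0.025), *Mir124a-1hg* -1.97 (SE 0.368, adjusted p 0.027) and *Rcor2* -1.24 (SE 0.251, adjusted p 0.033). *Bcl7a* read 9.03, 4.02 and 6.26 FPKM with GSKJ4 against 17.5, 13.3 and 14.9 FPKM without, a log2 fold change of -1.30 (SE 0.261, adjusted p 0.033). *Rest* read 17.4, 16.8 and 17.6 FPKM against 8.68, 11.4 and 13.1 FPKM, with no overlap and an adjusted p of 0.082.

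Leaving out untreated D4H8 replicate 1, 2 or 3 took all 5 of these calls past the threshold (adjusted p 0.0735 to 0.163), and leaving out treated replicate 3 took all but that of *Mir124-2hg* past it (0.051 to 0.0712). With treated replicate 1 or 2 left out all 5 held. The 5 neuron markers summed to 67.6 to 185 FPKM with GSKJ4 and 154 to 308 FPKM without, and the 6 postmitotic motor neuron markers to 11.6 to 27.1 FPKM and 55.3 to 60.2 FPKM. The 5 motor neuron progenitor markers summed to 55.1 to 115 FPKM with GSKJ4 and 220 to 307 FPKM without, and 3 of the 5 were lower. The progenitor factor *Olig2* read 8.14, 1.85 and 10.8 FPKM with GSKJ4 against 124, 79.4 and 91.7 FPKM without. The part of these markers in the differences above was not tested.

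None of the 7 regulators and none of the 21 other subunits passed with GSKJ4 at D5 or D6 by edgeR without the replicate block. Of all genes, 1 of 16309 passed at D5 and 0 of 16301 at D6. The GSKJ4 effect differed between D6 and D4H8 for *Mir124-2hg* (log2 difference 2.43, SE 0.435, adjusted p 0.012), *Mir124a-1hg* (2.08, SE 0.411, adjusted p 0.023) and *Rcor2* (1.26, SE 0.276, adjusted p 0.042). For *Mir124-2hg* the call was lost without untreated D4H8 replicate 1 (0.0523). For *Mir124a-1hg* it was lost without untreated D4H8 replicate 1 (0.0928), D6 replicate 2 (0.0828) or 3 (0.0805), or treated D6 replicate 1 (0.0549). For *Rcor2* it held only without a treated D4H8 library. In this test 0.735% of all genes passed. Between D5 and D4H8 the effect differed for *Mir124-2hg* and *Mir124a-1hg*, where 0.249% of all genes passed. Both calls were lost without untreated D4H8 replicate 1 (adjusted p 0.134 and 0.0911 by edgeR) and without several other libraries.

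Genes whose course was most like that of the actin-related pair were found by Pearson correlation of log2 CPM (counts scaled to library size) over the 21 libraries. The ranking was made among 15261 genes with a mean CPM of at least 1. Genes with predicted or clone-type symbols and identifiers without a symbol were then passed over. The correlations are descriptions, since the libraries share stages and depth. For *Actl6a* the most alike were *Ahcy* (r 0.98), *Rpsa*, *Ran*, *G3bp1* and *Slbp*, of which *Slbp* is the histone mRNA binding protein of dividing cells. For *Actl6b* they were *Fam155a* (r 0.99), *Bdh1*, *Ngfr*, *Cend1* and *Kif5a*, of which *Kif5a* is a neuronal kinesin and *Ngfr* the p75 neurotrophin receptor of motor neurons.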

How the data were processed

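The RNA-seq tables hold raw counts per gene and FPKM for 21 libraries. Per the labels, the authors used HISAT2 and SAMtools on mm10, then HTSeq, to make the raw counts. The counting strand was not given in the sources used here. The deposited FPKM values, scaled to exonic length and counted reads, differed from FPKM recomputed from the counts by at most 0.005. Depth limits genes near 3 counts per library.

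The counts were tested with edgeR 4.0.16 (quasi-likelihood, TMM, filterByExpr with a minimum count of 10, Benjamini-Hochberg adjustment) in R 4.3.3. Stage contrasts were fitted on the 12 untreated libraries, GSKJ4 contrasts on the 6 libraries of a stage, treated stages on 9 and differences between effects on 18. Alternatives were DESeq2 1.42.0, scaling by RLE or upper quartiles, dropping the filter or asking for 10 counts in each library, a replicate block, a single fit to all 21 libraries, and leaving out each library in turn. The pipeline was checked on simulated data.

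Groups and replicate numbers came from the sample titles. Pairing by number was checked by correlating deviations from group means across genes. All 3 numbers were over 0.1 for D4H8 against D4 (0.145 to 0.371), D5 against D4H8 (0.185 to 0.345), D6 against D5 (0.221 to 0.373) and GSKJ4 at D6 (0.488 to 0.796), and not for the other contrasts. The 21 pairs of libraries within groups differed beyond sampling noise (mean chi-square per gene 6.94 to 117).

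The 10 members, the gene lists, the markers and the naming rule were chosen with earlier results of these data known. All 10 members were named. Other subunits were named at a log2 fold change of at least 1 with adjusted p under 0.05 in D6 against D4, when passing in a GSKJ4 contrast, or as same-position relatives. *Smarcc1*, *Brd7*, *Rcor1* and overlapping genes were named after their values were seen. Positions come from GENCODE M21 on GRCm38. Shares of a position and their SDs have no test.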

Additional observations from a re-analysis of the deposited data

How the results depend on the processing

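All 10 members passed D6 against D4 under every scaling tried, without the filter, with a replicate block and with any 1 library left out (10 in each), with 9 in the fit over all 21 libraries and 8 of the 8 genes left at 10 counts in every library. With upper-quartile scaling the all-gene median of that contrast went from -0.04 to -0.19, and the directions of the members stayed as given. No called direction reversed in any alternative.

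Counts that moved by over 1.5 times, or to or from 0, were these. In D4H8 against D4, 2 members passed, against 4 by DESeq2, 1 with upper-quartile scaling and 1 in the fit over all 21 libraries. Over all genes DESeq2 gave 965 higher and 174 lower of 16218, and the fit over all 21 libraries 413 and 9 of 18349. With 1 library left out 0 to 2 members passed. Asking for at least 10 counts in every library left 8 genes. It took out *Actl6b* and *Dpf3*, the 2 that had passed, so its count of 0 does not test those calls. In D5 against D4H8, 5 passed, against 4 to 7 with 1 library left out. Of the 8 genes left at 10 counts in every library 3 passed, with *Actl6b* and *Dpf3* again taken out. For GSKJ4 at D5, 0 passed, against 1 by DESeq2 and 1 without the filter, *Phf10* both times. From treated D5 to treated D6, 5 passed, against 8 in the fit over all 21 libraries and 4 to 5 with 1 library left out. Over all genes, 4587 of 18349 passed in that fit over all 21 libraries, in place of 2057. D6 against D5 gave 7 to 8 with 1 library left out. The replicate block gave 3 in place of 2 in D4H8 against D4 and 6 in place of 5 in D5 against D4H8, with the genes named beside the results, and changed no other call of a member. Over all genes the block gave 1235 higher and 1039 lower for GSKJ4 at D4H8 in place of 343 and 301, 4 changed in place of 1 at D5, and 48 higher and 209 lower in place of 0 at D6. Without the filter 2287 genes changed with GSKJ4 at D4H8 and 128 at D5, and 1319 in place of 767 in D4H8 against D4. Without untreated D4H8 replicate 1, 2 or 3 the 644 changed with GSKJ4 at D4H8 became 43 to 50.

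Shares of a position rest on the scale. From CPM, with no length scaling, *Smarcd3* held 4.52% at D4 and 5.22% at D6, *Dpf1* with *Dpf3* 27.8% at D6, and *Ss18l1* 9.19% at D4 and 59.8% at D6. With the 10 members alone in the sums, *Smarcd3* held 5.09% at D4 and 5.09% at D6, and *Dpf1* with *Dpf3* 4.75% at D4 and 56.5% at D6. The causes were not tested beyond the construction of each alternative. With 3 libraries a group, SEs of the members in the GSKJ4 contrasts reached 0.556 on the log2 scale (*Actl6b* at D4H8, from 7 to 47 counts in the untreated libraries).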
